A study of Mus musculus with 2 samples.

Results

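The aldo-keto reductases are enzymes that use NADPH or NADH to reduce aldehydes and ketones. The 10 genes described here belong to the mouse Akr1a, Akr1b and Akr1c groups (Akr1a1, Akr1b3, Akr1b7, Akr1b8, Akr1b10, Akr1c6, Akr1c12, Akr1c13, Akr1c14 and Akr1c18). They were listed by symbol and matched to gene IDs through GENCODE M21, and all 10 matched among 55536 annotated genes. Total RNA of the whole adrenal gland was sequenced from 2 adult male mice aged 8 to 10 months, both of the strain B6CASTF1/J, an F1 hybrid that carries 1 chromosome set from a C57BL/6J and 1 from a CAST/EiJ parent. Neither animal is described as treated. The labels number the libraries as biological replicates 2 and 1 and tie them to animal 4 and animal 2, under 1 shared donor entry. There is 1 group, so the data give levels within each gland and the ratio of replicate 2 to replicate 1.

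In steroid-producing cells, cleavage of the cholesterol side chain releases isocaproaldehyde, and Akr1b7 is the enzyme known in mouse adrenal cortex to reduce it. Its transcript is known to depend on adrenocorticotropic hormone (ACTH), which acts through cAMP. Akr1c18 inactivates progesterone and marks the X-zone, an inner layer of the mouse cortex that regresses in males around puberty. Some Akr1b enzymes also make prostaglandin F, and other members serve sugar and aldehyde metabolism.

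The libraries held 33987434 expected counts on annotated genes in replicate 2 and 29994901 in replicate 1, and 14731 genes in replicate 2 and 14544 in replicate 1 reached 1 TPM (a transcript level corrected for length and depth). All 7 cortex markers and all 8 chromaffin (medullary) markers of fixed lists were detected, which here means at least 1 TPM in both libraries. Of 8 kidney markers none was, and of 8 liver markers 4 were, with sums of 17.1 TPM in replicate 2 and 15.2 TPM in replicate 1. Adipocyte markers differed between the glands: the 8 genes of that list summed to 2136 TPM in replicate 2 and 242 TPM in replicate 1. The 6 brown adipocyte markers summed to 282 TPM in replicate 2 and 27.0 TPM in replicate 1. Levels are given per library and as mean ± SD over n = 2 animals, and intervals on counts cover counting error only.

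The detected members fell into an Akr1b cluster, Akr1a1 and a single Akr1c gene. Of the 10 members, 6 were detected, and 56.3% of the 22015 nuclear protein-coding genes were. Akr1b3, Akr1b8, Akr1b10 and Akr1b7 lie side by side on chromosome 6 (mm10, 34302434 to 34423142), and all 4 were detected. The 5 Akr1c members lie on chromosome 13 (4049011 to 4457877), and Akr1c13 was the one detected there. Akr1a1 lies alone on chromosome 4 (116636510 to 116651680, minus strand) and was detected.

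Akr1b7, Akr1b8 and Akr1b10 are close copies of each other, and Akr1b3 is less alike. The stretches of sequence that each shares with other genes, which bear on how reads can be assigned, are given further below. Each has 951 coding bases. Over the whole coding sequence, Akr1b7 was 89.3% identical to Akr1b10, 84.9% to Akr1b8 and 72.5% to Akr1b3. The first 90 coding bases of each main transcript (GENCODE M21, mm10) are shown to let the copies be compared, with capitals where a base differs from Akr1b7 at the same position.
Akr1b7: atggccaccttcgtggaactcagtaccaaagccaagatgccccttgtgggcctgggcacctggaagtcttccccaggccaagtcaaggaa
Akr1b8: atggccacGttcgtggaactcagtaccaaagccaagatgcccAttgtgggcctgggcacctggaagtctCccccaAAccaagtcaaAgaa
Akr1b10: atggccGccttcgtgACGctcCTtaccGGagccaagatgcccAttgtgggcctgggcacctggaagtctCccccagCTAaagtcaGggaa
Akr1b3: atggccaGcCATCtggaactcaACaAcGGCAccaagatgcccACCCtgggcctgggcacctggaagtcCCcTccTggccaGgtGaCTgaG
In this stretch Akr1b8 differed from Akr1b7 at 6 bases, Akr1b10 at 14 and Akr1b3 at 25. The order is not that of the whole coding sequence, in which Akr1b10 was nearest to Akr1b7.

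Akr1b7 was the most abundant member in both glands and the one that differed most between them. It had 582 TPM in replicate 2 and 2262 TPM in replicate 1 (1422 ± 1189). Among nuclear protein-coding genes it ranked 35 in replicate 2 and 6 in replicate 1. The level rested on 20673 expected counts in replicate 2 and 74865 in replicate 1. The deposited credibility bounds of the TPM were 560 to 576 in replicate 2 and 2191 to 2223 in replicate 1, and in each library they lay just under the TPM itself. The SD was nearly as large as the mean, so the mean alone describes neither gland. In this bulk tissue, fewer cells of a type and less RNA per cell cannot be told apart.

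Akr1a1, which reduces glucuronate on the way to ascorbate in mice and also detoxifies aldehydes, was second, and nearly equal in both animals. Its level was 343 TPM in replicate 2 and 346 TPM in replicate 1 (344 ± 2.06). Akr1b3, the mouse aldose reductase that turns glucose into sorbitol, had 110 TPM in replicate 2 and 136 TPM in replicate 1 (123 ± 18.0). On gene TPM both lay apart from their neighbours in the order of levels in each library. For Akr1b3 that total includes a noncoding form: over coding forms alone it had 77.8 TPM in replicate 1, below the 105 TPM of Akr1b8.

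Akr1b10 and Akr1b8 could not be ordered. Akr1b10, named after a human enzyme known to reduce retinaldehyde, had 72.4 TPM in replicate 2 and 97.9 TPM in replicate 1 (85.2 ± 18.0). Akr1b8, an aldehyde reductase first known as a growth factor-regulated protein, had 54.9 TPM in replicate 2 and 105 TPM in replicate 1 (80.0 ± 35.6). On gene TPM Akr1b10 was the higher of the pair in replicate 2 and the lower in replicate 1. Over coding forms alone it was the lower in replicate 2 too, at 52.9 TPM, though not in the second, kallisto-format quantification (47.6 TPM, against 45.6 TPM of Akr1b8).

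The Akr1c members were at the foot of the order. Akr1c13, an enzyme that reduces carbonyls, had 3.28 TPM in replicate 2 and 1.23 TPM in replicate 1 (2.26 ± 1.45). In replicate 1 its credibility bounds were 0.973 to 2.54 TPM, so they reach below the 1 TPM threshold. Over coding forms alone it had 1.16 TPM there in RSEM format and 0.779 TPM in kallisto format. Akr1c14, a hydroxysteroid dehydrogenase acting on androgens and progestins, had 0.400 TPM in replicate 2 and 0.430 TPM in replicate 1. Akr1c12, the near copy of Akr1c13, had 0.240 TPM in replicate 2 and 0.180 TPM in replicate 1. Akr1c6, a dehydrogenase of estrogens and androgens, had 0.210 TPM in replicate 2 and 0.130 TPM in replicate 1. These last 3 genes rested on 2 to 32 expected counts per library, so their order was not resolved by counting.

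**Figure D1:**
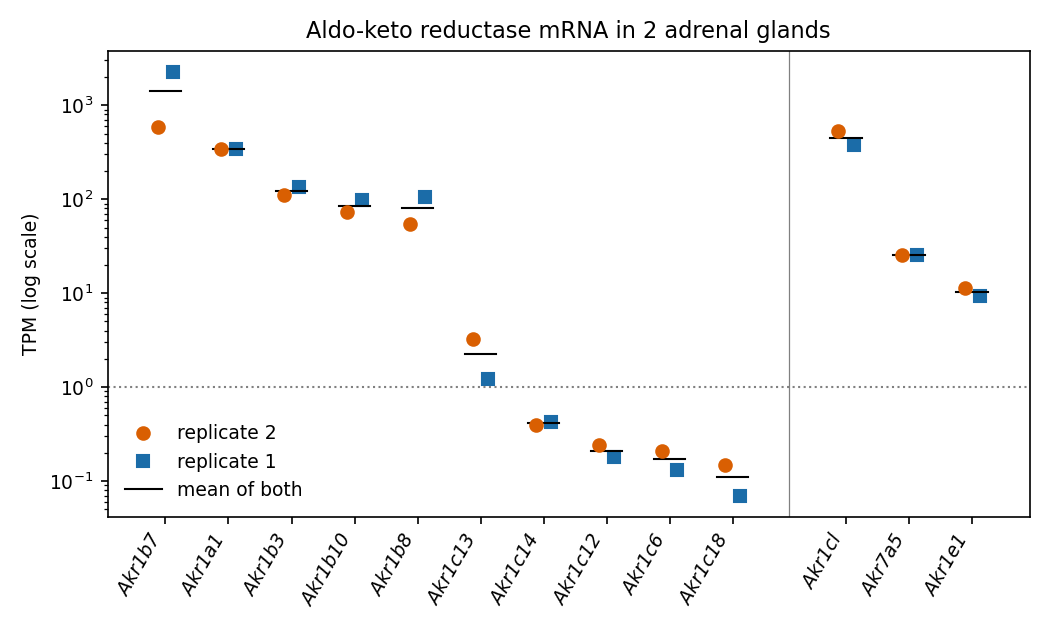
TPM (log axis) of the 10 members, ordered by mean, and right of the vertical line of 3 other aldo-keto reductases; circles are replicate 2, squares replicate 1, bars the mean of both and the dotted line 1 TPM. Akr1b7 is highest in both glands (582 TPM in replicate 2, 2262 TPM in replicate 1), and 4 Akr1c genes lie below the dotted line.

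Akr1c18 was close to the limit of what these libraries can show. It had 0.150 TPM in replicate 2 and 0.0700 TPM in replicate 1 (0.110 ± 0.0566), from 5 counts in replicate 2 and 2 in replicate 1. The exact 95% Poisson intervals of these counts were 1.62 to 11.7 in replicate 2 and 0.242 to 7.22 in replicate 1. The other X-zone markers of the fixed list were Pik3c2g, a lipid kinase subunit, at 0.220 TPM in replicate 2 and 0 TPM in replicate 1, and Thrb, a thyroid hormone receptor also used in other tissues, at 13.5 TPM in replicate 2 and 12.5 TPM in replicate 1. Thus 1 of 3 genes of that list was detected, Thrb, and how specific each gene is to the X-zone was not tested.

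Summed over the family, the glands differed mainly through 1 gene. The 10 members together held 1166 TPM in replicate 2 and 2949 TPM in replicate 1, which was 0.306% of the TPM of nuclear protein-coding genes in replicate 2 and 0.806% in replicate 1. Akr1b7 made up 49.9% of that sum in replicate 2 and 76.7% in replicate 1. The 4 Akr1b members held 819 TPM in replicate 2 and 2601 TPM in replicate 1. The 5 Akr1c members held 4.28 TPM in replicate 2 and 2.04 TPM in replicate 1.

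Between the animals, 2 members differed by at least 2-fold, both lower in replicate 2. For this comparison expected counts were scaled with TMM factors, and a gene was compared only if it averaged at least 100 counts, which 5 members did. A call needed a ratio of 2 or more in either direction and an exact binomial 95% interval of that ratio that left out equality. Of 12853 nuclear genes compared, 1.10% were called lower in replicate 2 and 2.40% higher. Of the 5 members compared, 2 were called lower, 0 higher and 3 were under 2-fold. No p-value is given, because 1 animal on each side leaves no estimate of the spread between animals.

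Akr1b7 was 4.21-fold lower in replicate 2 (interval 4.15 to 4.28), a log2 ratio of -2.07. The median log2 ratio of all genes compared was 0.01, and 15 of the 12853 genes had a lower ratio than Akr1b7. Akr1b8 was 2.07-fold lower in replicate 2 (1.97 to 2.19), with 98 genes below it on the same log2 scale. When the libraries were scaled on the ERCC spike-ins instead, Akr1b8 was 1.98-fold lower and no longer called. Its interval reaches below 2-fold, so the call rests on the threshold.

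The other 3 members compared were lower in replicate 2 by smaller factors. Akr1b10 was 1.47-fold lower (1.39 to 1.54) and Akr1b3 1.24-fold lower (1.18 to 1.29). Akr1a1 was 1.07-fold lower (1.04 to 1.09), a difference of the size that the choice of scaling alone can move: with spike-in scaling the ratio of replicate 2 to replicate 1 was 0.985 (0.960 to 1.01), an interval that includes equality. The ratios of all 5 were negative on the log2 scale under every scaling run and with the kallisto-format counts, that of Akr1a1 with spike-in scaling not beyond its counting error. The 4 Akr1b genes were therefore lower in replicate 2 by unequal amounts, from 1.24-fold to 4.21-fold.

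**Figure D2:**
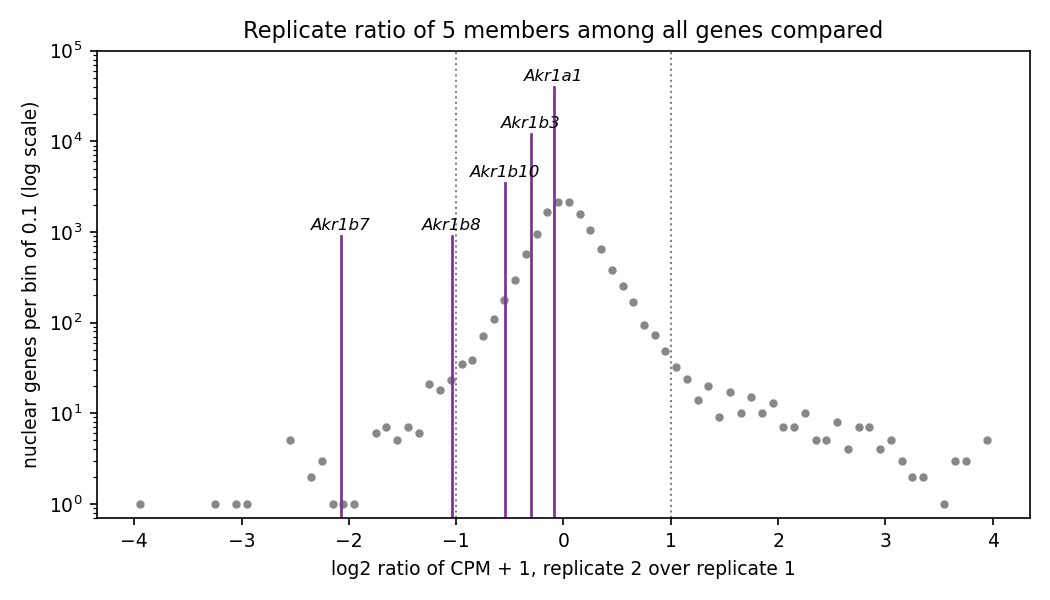
Number of nuclear genes (grey points, log axis) in bins of 0.1 of the log2 ratio of CPM + 1, replicate 2 over replicate 1, with purple lines at the 5 members compared and dotted lines at 2-fold; genes beyond 4 in either direction are in the outermost bins, and bins without genes are not drawn. Akr1b7 lies in the sparse lower tail at -2.07, Akr1b8 at the dotted line and Akr1a1 near the centre.

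Ratios taken within a gland do not depend on the scaling of the libraries. Akr1b7 stood at 10.6 times Akr1b8 in replicate 2 and 21.5 times in replicate 1. Against Akr1a1 it stood at 1.70 times in replicate 2 and 6.55 times in replicate 1. Set against Cyp11a1, the side-chain cleavage enzyme, the ratio was 0.182 in replicate 2 and 0.567 in replicate 1. The ratio to Star, the carrier that delivers cholesterol into mitochondria, was 0.119 in replicate 2 and 0.330 in replicate 1. Relative to each of these 4 genes, Akr1b7 was lower in replicate 2.

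Among the members with few counts, Akr1c13 ran the other way. Its 113 counts in replicate 2 stood against 38 in replicate 1, which made the ratio 2.56 (1.76 to 3.80), and it averaged too few counts to be compared under the rule. Akr1c6 had 8 counts in replicate 2 and 2 in replicate 1, with a ratio of 3.44 (0.686 to 33.2). The ratio for Akr1c18 was 2.15 (0.352 to 22.6), for Akr1c12 1.15 (0.349 to 4.01) and for Akr1c14 0.917 (0.540 to 1.56). The intervals of these 4 genes include equality, so no difference was detectable at this depth.

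Akr1c13 and Akr1c12 are the closest pair in the family. Their coding sequences were identical at 935 of 972 bases (96.2%). The first 90 coding bases (GENCODE M21, mm10) are shown for both and for Akr1c18, with capitals where a base differs from Akr1c13.
Akr1c13: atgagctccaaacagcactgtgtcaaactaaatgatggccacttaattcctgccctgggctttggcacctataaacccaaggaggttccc
Akr1c12: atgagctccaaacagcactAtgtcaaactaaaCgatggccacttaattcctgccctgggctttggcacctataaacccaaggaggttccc
Akr1c18: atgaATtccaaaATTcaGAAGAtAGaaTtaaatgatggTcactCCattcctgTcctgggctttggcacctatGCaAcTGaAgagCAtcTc
Akr1c12 differed from Akr1c13 at 2 of these bases and Akr1c18 at 26. Of all windows of 101 bases in the Akr1c13 transcript, 11.4% also occurred in Akr1c12, so part of the reads from this pair cannot be placed by sequence. The posterior SD of the expected count was 0.680 in replicate 2 and 0.920 in replicate 1 for each of the pair, small beside the 113 counts of Akr1c13 in replicate 2 and its 38 in replicate 1. For Akr1c12, which had 8.49 expected counts in replicate 2 and 5.92 in replicate 1, it was a larger part of the value.

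Akr1b3 shared the most sequence with other genes. Of its 101-base windows, 50.4% also occurred in a transcript of another gene, and of its 31-base windows 63.5%. The sharers of the longer windows were 3 processed pseudogenes, which are intronless copies of a processed transcript, on other chromosomes. Of these, Gm12138 on chromosome 11 was listed at 37.9 TPM in replicate 2 and 41.7 TPM in replicate 1, and Gm6736 on chromosome 12 at 20.1 TPM in replicate 2 and 29.4 TPM in replicate 1. Gm6644 on chromosome 1 was at 0.200 TPM in replicate 2 and 0.350 TPM in replicate 1. Together with Akr1b3 the copies held 168 TPM in replicate 2 and 207 TPM in replicate 1, and the copies took 34.5% of that in each library. How much of it was transcribed from the copies was not tested, so the Akr1b3 level is uncertain by that amount.

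Akr1b7, Akr1b8, Akr1b10 and Akr1a1 had no 101-base window in common with another gene. Their shares of shared 31-base windows were 10.1%, 10.5%, 14.4% and 0%. For Akr1b7 the posterior SD of the count was 2.50 against 20673 counts in replicate 2, and 3.75 against 74865 counts in replicate 1.

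**Figure D3:**
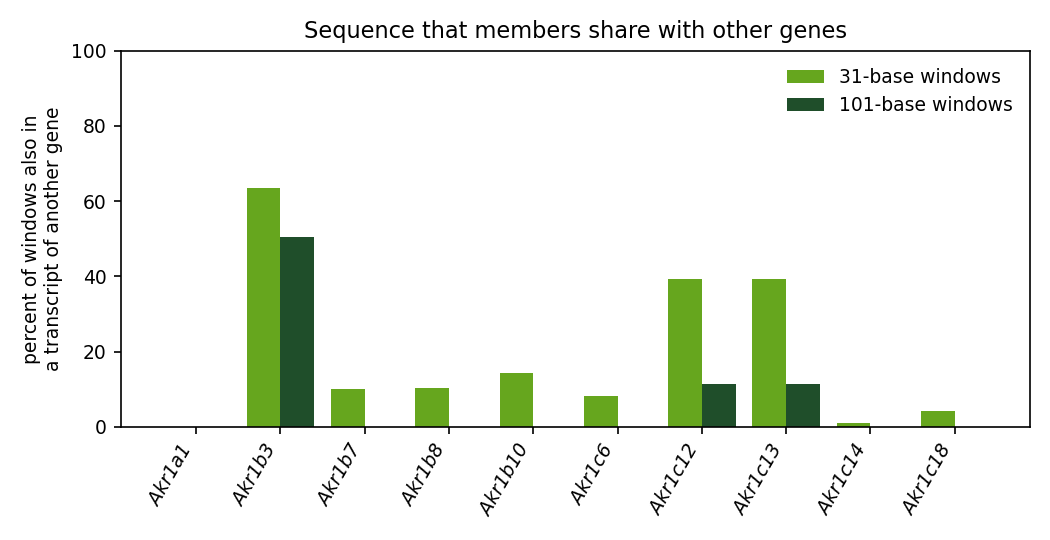
Percent of the 31-base (light bars) and 101-base (dark bars) windows of each member's main transcript that also occur in a transcript of another gene of GENCODE M21. Akr1b3 stands highest at 63.5% and 50.4%, the Akr1c12 and Akr1c13 pair follows, and Akr1b7 shares no 101-base window.

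The second quantification, in kallisto format, gave the same order of the detected members in each gland. Akr1b7 had 490 TPM in replicate 2 and 1871 TPM in replicate 1. On the log2 scale the kallisto-format value of Akr1b7 minus the RSEM-format value was -0.25 in replicate 2 and -0.27 in replicate 1. The median of detected nuclear protein-coding genes was -0.17 in replicate 2 and -0.18 in replicate 1. Akr1b3 differed upward, by 0.26 in replicate 2 and 0.12 in replicate 1. The sum of Akr1b3 and its 3 copies was 176 TPM in replicate 2 and 200.3 TPM in replicate 1 in kallisto format, with 24.7% of it on the copies in replicate 2 and 26.4% in replicate 1.

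Transcript shares showed which annotated forms carried each gene. Akr1b7 has 1 annotated transcript, of 1281 bases. Akr1b8 has 2, and its coding form Akr1b8-201 took 100% of the TPM in both libraries. Akr1a1-201, the main coding form of Akr1a1, took 88.9% in replicate 2 and 86.2% in replicate 1. The processed transcript Akr1a1-202, of 412 bases, took 9.66% in replicate 2 and 13.0% in replicate 1, but 29.8% in replicate 2 and 31.1% in replicate 1 in kallisto format. In Akr1b10, the coding form Akr1b10-201 took 73.0% in replicate 2 and 68.7% in replicate 1, and Akr1b10-203, annotated as a target of nonsense-mediated decay, took 10.8% in replicate 2 and 18.1% in replicate 1. In kallisto format Akr1b10-203 took 4.38% in replicate 2 and 5.69% in replicate 1. The coding form Akr1b10-202 took 11.5% in replicate 2 and 12.9% in replicate 1 there, against 0% in replicate 2 and 3.14% in replicate 1 in RSEM format.

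Akr1b3 had the largest noncoding share of the detected members. Its coding form Akr1b3-201 took 62.7% in replicate 2 and 56.3% in replicate 1. Akr1b3-204, a form of 554 bases annotated with a retained intron, took 35.5% in replicate 2 and 41.5% in replicate 1. In counts the short form was smaller, with 534 of 3462 expected counts in replicate 2 and 716 of 3676 in replicate 1, since TPM divides by length. The kallisto-format shares of Akr1b3-201 were 33.5% in replicate 2 and 34.5% in replicate 1, and a further coding form, Akr1b3-205, held 21.3% in replicate 2 and 17.9% in replicate 1 there, against 0% in replicate 2 and 0.970% in replicate 1 in RSEM format. The split between forms of Akr1b3, as of Akr1a1 and Akr1b10, was thus not settled by these files. Summed over the coding forms of Akr1b3, both methods gave similar levels: 69.1 TPM in replicate 2 and 77.8 TPM in replicate 1 in RSEM format, and 72.5 TPM in replicate 2 and 77.4 TPM in replicate 1 in kallisto format.

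**Figure D4:**
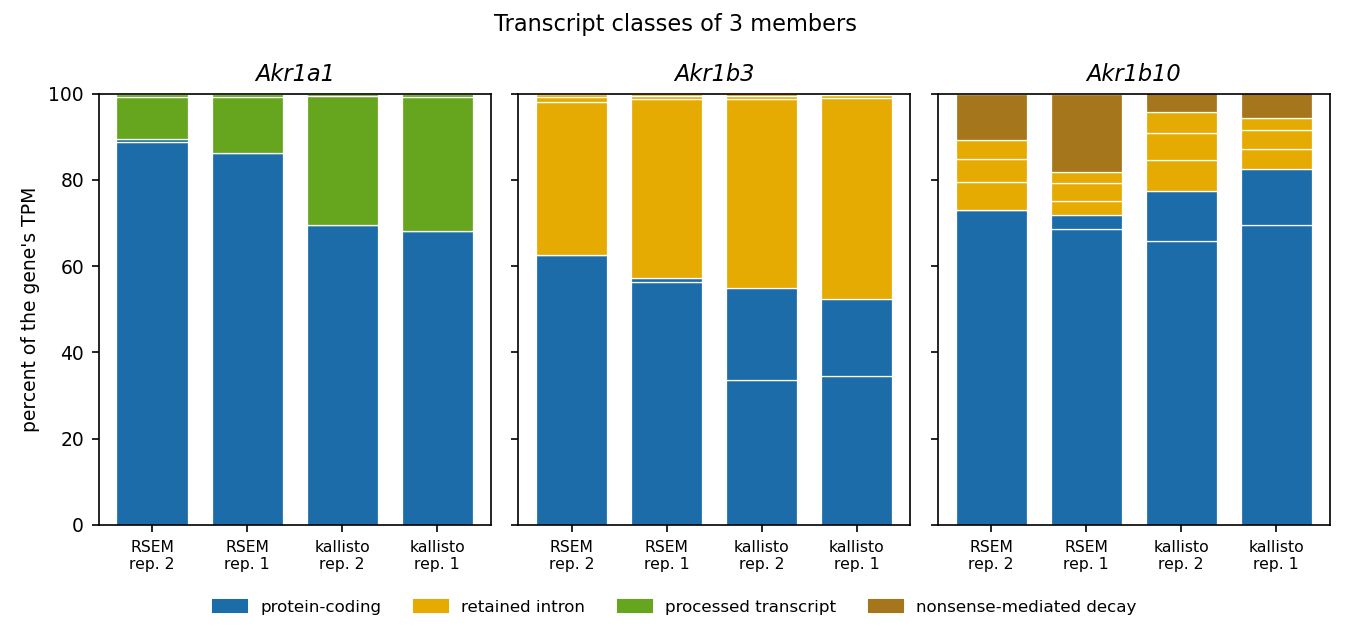
Percent of each gene's TPM by transcript class for Akr1a1, Akr1b3 and Akr1b10, from the RSEM-format and kallisto-format tables, replicate 2 left of replicate 1; each stacked segment is 1 annotated transcript. Akr1b3 shows the largest retained-intron segment, 35.5% in replicate 2 and 41.5% in replicate 1 in RSEM format.

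The members' neighbours on the chromosome were at or near 0. Between and over the Akr1b members the annotation places 4 other genes, all pseudogenes or antisense RNA, and the highest of them, the pseudogene Gm13859, had 0.150 TPM in replicate 2 and 0.380 TPM in replicate 1. Gm14546, which overlaps Akr1b3 on the opposite strand, was listed at 0 in both libraries. The Akr1c stretch holds 9 other genes, including Akr1c19 at 0.680 TPM in replicate 2 and 0.160 TPM in replicate 1, and none reached 1 TPM in either library in RSEM format. In kallisto format 1 of these, the pseudogene Gm47951, was at 1.43 TPM in replicate 2 and 1.95 TPM in replicate 1.

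The stretch before the Akr1b7 start is shown because Akr1b7 is the member whose level differed most. It is chr6:34412112-34412333 (RefSeq, GRCm38.p6, plus strand) and ends at the base before the GENCODE start of the gene. Capitals mark AGGTCA on the minus strand, read as TGACCT, and the 2 CCAAT boxes.
Akr1b7 upstream: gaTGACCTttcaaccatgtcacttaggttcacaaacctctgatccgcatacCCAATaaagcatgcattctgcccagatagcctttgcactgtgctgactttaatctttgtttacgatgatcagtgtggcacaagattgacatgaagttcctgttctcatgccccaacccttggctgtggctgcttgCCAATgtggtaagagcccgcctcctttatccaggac
RefSeq promoter windows, 250 bases before to 50 after each start, were matched for 9 members, and motifs were searched on both strands. AGGTCA, the hexamer bound by many nuclear receptors, was found in Akr1b7, Akr1b10 and Akr1c18, and in 16.3% of 32851 promoters. In Akr1c18 the match lay after the start, and in the other 2 before it. CCAAT was found in Akr1b7, Akr1c14 and Akr1c6, and in 37.4% of promoters. The RefSeq window of Akr1c14, from 4059341, lies inside the gene as GENCODE places it, whose start is 4049011. TATAAA was found in Akr1b8 and Akr1c6, and in 13.6%. None of the 9 held CAAGGTCA, the longer form bound by steroidogenic factor Nr5a1 (1.56% of promoters), the cAMP response element TGACGTCA (1.79%), its core TGACG (20.8%) or the antioxidant element TGACNNNGC (12.4%). AGGTCA is contained in CAAGGTCA and TGACG in TGACGTCA. A match describes letters only, and no match says only that the letters are not in this window.

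Other aldo-keto reductases were measured beside the members, and 1 of them was among the abundant transcripts. Akr1cl, an Akr1c-like gene on chromosome 1 (65012689 to 65032759, minus strand), had 531 TPM in replicate 2 and 376 TPM in replicate 1 (453 ± 110). It was 1.37-fold higher in replicate 2 (1.34 to 1.40), under the 2-fold rule. The ratio of Akr1b7 to Akr1cl was 1.10 in replicate 2 and 6.03 in replicate 1, so the 2 genes were near equal in one gland and far apart in the other. Among the Akr1c members, Akr1c18 was nearest to Akr1cl in coding sequence, at 77.6% identity.

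Of the 10 other aldo-keto reductases, 5 were detected. Akr7a5, which reduces aldehydes formed from aflatoxin, was at 25.5 ± 0.311 TPM and Akr1e1, which reduces anhydrofructose, at 10.3 ± 1.41 TPM. Kcnab3 and Kcnab2, beta subunits of voltage-gated potassium channels, were at 7.69 ± 0.537 and 2.69 ± 0.587 TPM. Akr1d1, the steroid reductase of bile acid synthesis, and Akr1c19, Akr1c20 and Akr1c21 were under 1 TPM in both libraries. Kcnab1, another such subunit, had 1.27 TPM in replicate 2 and 0.980 TPM in replicate 1. None of the 5 compared lay 2-fold apart between the glands.

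Several transcripts known to respond to ACTH and cAMP were lower in replicate 2, as Akr1b7 was. Of the 12 genes of that list, all were compared, 4 were called lower in replicate 2 and 0 higher, and 11 had a negative log2 ratio. Over all nuclear genes compared, 1.10% were called lower. Of the 18181 nuclear genes with at least 10 counts on average, 8745 had a negative log2 ratio. The median log2 ratio of the list was -0.64, against 0.01 over all nuclear genes with at least 10 counts on average. The list shares genes with the cortex and steroid synthesis lists, including Star and Cyp11a1 with both, so these lists are not independent. Whether ACTH input differed between the animals was not tested. Scarb1, the receptor that takes up cholesterol esters from high-density lipoprotein, had 609 TPM in replicate 2 and 1453 TPM in replicate 1 and was 2.60-fold lower. Fdx1, which passes electrons to the mitochondrial steroidogenic enzymes, had 516 TPM in replicate 2 and 1136 TPM in replicate 1 and was 2.40-fold lower. Star had 4897 TPM in replicate 2 and 6855 TPM in replicate 1, a factor of 1.56, and Cyp11a1 3192 TPM in replicate 2 and 3992 TPM in replicate 1, a factor of 1.35.

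Over 2 libraries, the coding genes with levels most like those of Akr1b7 included the same pair. The measure was the Euclidean distance of log2(TPM + 1) over both libraries, among 22014 nuclear protein-coding genes. It restates the level of each gene in the 2 libraries and does not test a shared response. Scarb1 was nearest at 0.642, followed by Fdx1 at 1.01, the chaperone Hspa8 at 1.04 and the fatty acid desaturases Fads1 at 1.10 and Fads2 at 1.13. None had as large a difference between the animals as Akr1b7. For Akr1c18 the nearest were Gm8909 and Wfdc3 at a distance of 0, then Cdh1, Dbil5 and Serpinf2 at 0.0126, all genes with 0.140 or 0.150 TPM in replicate 2 and 0.0700 TPM in replicate 1, where few counts fix the pattern.

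Steroid synthesis as a whole differed less, though not every gene of it did. Of its 15 genes 14 were compared, 2 were called lower in replicate 2 and 0 higher. The median log2 ratio was -0.19 and the mean -0.29. The median fell on Hsd11b2, which had 11 counts in replicate 2 and 15 in replicate 1. Those called lower were Fdx1 and Cyp17a1, the latter by 4.32-fold on 74 counts in replicate 2 and 275 in replicate 1. Hsd3b1, the dehydrogenase that makes progesterone, had 5325 TPM in replicate 2 and 5140 TPM in replicate 1. Cyp21a1, the steroid hydroxylase of corticosterone synthesis, had 2775 TPM in replicate 2 and 3263 TPM in replicate 1. The 7 cortex markers had a median of -0.36 with 0 called. All 7 were negative, beside 8745 of the 18181 nuclear genes with at least 10 counts on average.

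The lists closest to the enzymes' own chemistry stayed near the centre. Of 16 aldehyde and carbonyl enzymes all were detected and compared, 1 was called higher in replicate 2 and 0 lower, with a median log2 ratio of 0.10. Aldh1a1, which oxidises retinaldehyde, had 454 TPM in replicate 2 and 302 TPM in replicate 1. Adh1, an alcohol dehydrogenase, had 219 TPM in replicate 2 and 391 TPM in replicate 1 and was 1.91-fold lower. Aldh2, the mitochondrial acetaldehyde dehydrogenase, had 341 TPM in replicate 2 and 346 TPM in replicate 1.

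Partners of Akr1b3 and Akr1a1 in polyol and glucuronate metabolism had 6 of 9 genes detected, 0 called and a median of 0.06. Sord, which oxidises the sorbitol made by aldose reductase, had 51.2 TPM in replicate 2 and 50.7 TPM in replicate 1. Ugdh, which makes UDP-glucuronate, had 31.5 TPM in replicate 2 and 26.0 TPM in replicate 1. Akr1b3 was 1.24-fold lower in replicate 2 while Sord was 1.07-fold lower.

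Prostaglandin synthesis and receptor genes had 8 of 11 detected, 0 called among 7 compared and a median of 0.44. Of the 11 ratios 9 were positive. The median fell on Ptgs2, a gene under 1 TPM in both libraries with 74 counts in replicate 2 and 39 in replicate 1. Ptges3, a prostaglandin E synthase and cochaperone, had 47.7 TPM in replicate 2 and 65.2 TPM in replicate 1. Ptges, the inducible synthase, had 18.8 TPM in replicate 2 and 9.26 TPM in replicate 1. Targets of NRF2, the regulator of the antioxidant response, had 11 of 12 detected, 1 called higher and 1 lower in replicate 2, and a median of 0.00. Me1, the malic enzyme that makes NADPH, had 704 TPM in replicate 2 and 801 TPM in replicate 1, and Gstm1, a glutathione transferase, had 206 TPM in replicate 2 and 185 TPM in replicate 1.

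Markers of other cell types moved between the same glands. In replicate 2 all 8 adipocyte markers were called higher (median log2 ratio 3.03), as were all 5 brown adipocyte markers compared (median 2.57). Of all nuclear genes compared, 2.40% were called higher and 1.10% lower. Fabp4, a fatty acid carrier, had 572 TPM in replicate 2 and 62.1 TPM in replicate 1, and Ucp1, the uncoupling protein of brown fat, had 80.6 TPM in replicate 2 and 0.140 TPM in replicate 1. Of 8 chromaffin markers, 2 were called lower in replicate 2, 0 higher and 6 were under 2-fold. The median log2 ratio of that list was -0.35, with 7 ratios negative and 1 positive. The 2 called lower were Pnmt and Th. Pnmt, the enzyme that makes adrenaline, had 78.0 TPM in replicate 2 and 363 TPM in replicate 1, a 5.04-fold difference. Th, the first enzyme of catecholamine synthesis, had 256 TPM in replicate 2 and 514 TPM in replicate 1. The most abundant markers of the list, Chga and Chgb, were under 2-fold. Chga had 1004 TPM in replicate 2 and 1205 TPM in replicate 1. Chgb had 671 TPM in replicate 2 and 775 TPM in replicate 1. The part of these cell types in the Akr1b7 difference was not tested.

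**Figure D5:**
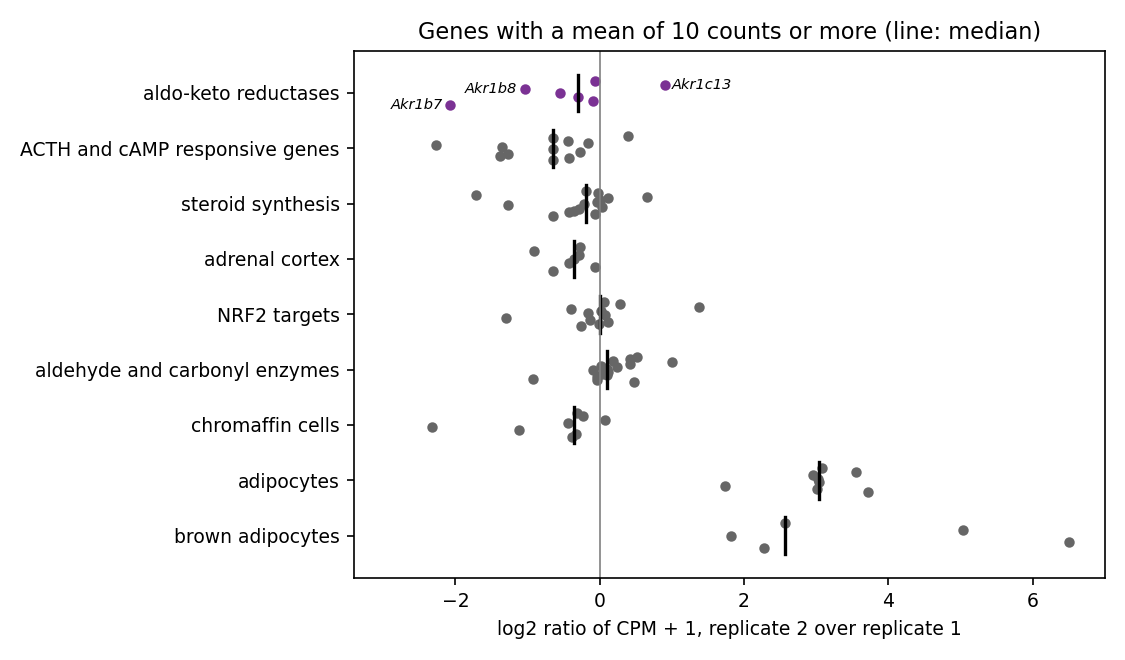
Log2 ratio of CPM + 1, replicate 2 over replicate 1, of the 7 members that averaged 10 counts or more (purple) and of the genes of 8 lists that did so (grey); each point is 1 gene and the black line the median. The ACTH and cAMP list lies left of 0 with a median of -0.64, and both adipocyte lists lie wholly right of 0.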

How the data were processed

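The deposited gene and transcript tables hold expected counts (estimated counts, not normalized) and TPM under RSEM's column names, per the file headers. The same deposited tables give posterior means of counts, each transcript's percent of the TPM of its gene and, as non-negative signal values, posterior SDs of counts and credibility bounds of the TPM. A second deposited transcript table holds estimated counts and TPM under kallisto's column names, and these were summed per gene. The text with the tables names mm10 and GENCODE M21, and aligner and quantifier versions were not given in the sources used here. Libraries were made from 300 ng of RNA with a directional kit and ERCC spike-ins, per the labels. How reads from CAST/EiJ alleles were assigned was not tested.

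The 96 ERCC entries, 1 phiX174 entry and 26248 entries named by a number held 0.238% of the counts in replicate 2 and 0.243% in replicate 1, and were kept out of library sizes. Expected counts were rounded to whole numbers for folds, and scaled with TMM factors (edgeR 4.0.16, R 4.3.3). Log2 ratios are of CPM + 1, which understates differences of low genes. Exact intervals came from SciPy 1.17.1. A count of 0 allows up to 3 counts, which is 0.0883 CPM in replicate 2 and 0.100 CPM in replicate 1. Intervals and floors cover counting error only, since reads carried no molecular identifiers. List medians used genes that averaged 10 counts or more. Alternatives were DESeq2 1.42.0 size factors, total counts, ERCC scaling, kallisto-format values, posterior means, other thresholds and each replicate alone. Identities came from global alignment (Biopython 1.88). The fold interval and the 2-fold call were tested on simulated counts that held counting error but no variation between animals.

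The members and the 14 lists (134 entries) were chosen with earlier results of these data known. Of these entries 1, a newer name of Fam213b, had no match. From each list the 4 genes with the highest mean TPM could be named, with all members, other aldo-keto reductases, cluster neighbours, the main copies of Akr1b3 and the 5 genes nearest to Akr1b7 and Akr1c18. Cyp17a1 and Hsd11b2 of the steroid list and Ptgs2 of the prostaglandin list were named in addition.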

Additional observations from a re-analysis of the deposited data

How the results depend on the processing

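No paired analysis was possible because the labels give 1 group. Akr1b7 had the same direction under every alternative run: its log2 ratio was -2.04 with total counts, -2.00 with ERCC spike-in scaling and -2.05 with kallisto-format counts. The members at least 2-fold lower in replicate 2 numbered 1 (Akr1b7) with ERCC scaling and 2 under the other 5 alternatives at that threshold, and the same 2 passed at 1.5-fold. The members at least 2-fold higher numbered 1 (Akr1c13) without a filter on counts and with a mean of at least 10 counts. Rescaled over nuclear protein-coding genes, the mean of Akr1b7 was 3854 TPM and the members' sum 5558 TPM, with 7 members detected. At a threshold of 5 TPM, 5 were detected, and at 0.5 TPM 6 were. With each replicate alone, the Akr1b7 level ranged from 582 to 2262 TPM, the members' sum from 1166 to 2949 TPM and the share of Akr1b7 from 49.9% to 76.7%. The mean share of Akr1a1-201 was 68.8%, that of Akr1b3-201 34.0% and that of Akr1b10-201 67.7% in kallisto format. Depth limits the statements on Akr1c6, Akr1c12, Akr1c14 and Akr1c18, and 1 animal on each side limits all ratios.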
